A study of Mus musculus with 15 samples.

Results

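CD44+CD62L- mouse CD8 T cells grown in a cocktail of memory-inducing agents were compared with cells of the same surface gate grown in IL-2. The comparison rests on 6 of the 15 RNA-seq libraries of the study, 3 of the cocktail cells and 3 of the IL-2 cells, chosen by their labels for culture and sort. The cells of both cultures came from OT-I mice, whose CD8 T cells carry a transgenic receptor for the ovalbumin peptide SIINFEKL. In both, CD8 T cells obtained by negative selection were mixed with dendritic cells grown from bone marrow and coated with that peptide, and were kept for 14 days with 1 passage. The cocktail joined 2 cytokines, IL-21 and IL-7, to the small molecules TWS119 and 2-deoxyglucose, and the other culture held IL-2 alone in their place. Both populations were then sorted for CD44, a surface receptor that activated and memory T cells carry at high levels, and for lack of CD62L, a lymph node homing receptor. The study also sorted 2 CD62L+ populations from the cocktail and uncultured naive cells, which entered the fit for its estimate of spread.

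An activated CD8 T cell can become a short-lived killer or a long-lived memory cell. IL-2 signals through STAT5 and drives growth, granule enzymes and the effector regulator Blimp-1, which Prdm1 encodes. IL-7 supports survival, IL-21 signals mainly through STAT3, 2-deoxyglucose blocks glycolysis and mannose metabolism, and TWS119 inhibits GSK3, the kinase that marks beta-catenin for destruction and so holds back the Wnt pathway and its nuclear partner TCF1, encoded by Tcf7. CD44+CD62L- is the surface type of effector and effector memory cells.

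The 3 libraries of each population are technical replicates, per the study's design text, so every p-value here measures the spread between libraries and not between mice or cultures. In bulk libraries, fewer cells expressing a gene and less RNA per cell cannot be told apart. Levels are FPKM, fragment counts divided by transcript length and by the size of the library, given as mean ± SD (n = 3). Fold changes are log2 differences ± SE on the log2(FPKM + 1) scale, cocktail over IL-2, which understates the change of low genes. A gene was called, and is said to have risen or fallen, at a limma adjusted p under 0.05 where its log2 fold change was 1 or more in either direction. The libraries summed to 685998 to 744441 FPKM, with 10294 to 10451 genes at 1 FPKM or more. The median coefficient of variation between libraries of genes at 10 to 100 FPKM was 1.90% in the cocktail cells and 1.94% in the IL-2 cells. Low values moved in steps of single reads, and these steps put the depth of the 6 libraries within a factor of 1.07 of each other.

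Of 11242 genes tested, 882 were called (7.85%), 522 higher in the cocktail cells (4.64%) and 360 lower (3.20%). With no minimum fold, 84.3% of genes passed the adjusted p, so the minimum fold and not the p-value set the calls, and the shares above are the background for each gene group. The median log2 fold change of all genes was -0.013, with quartiles of -0.31 and 0.28. The cocktail and IL-2 libraries did not overlap in 84.6% of genes tested, so lack of overlap does not set a gene apart. Of the called genes, 108 higher and 72 lower ones reached a log2 fold change of 2, and 15 higher and 8 lower ones reached 4. All 15 CD8 T cell markers were expressed and none was called. Their summed level was 4404 to 4423 FPKM in the cocktail libraries and 3870 to 3897 FPKM in the IL-2 libraries. Cd8a, the CD8 alpha chain, stood at 342 ± 3.52 FPKM in cocktail and 218 ± 1.59 FPKM in IL-2 cells.

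**Figure D1:**
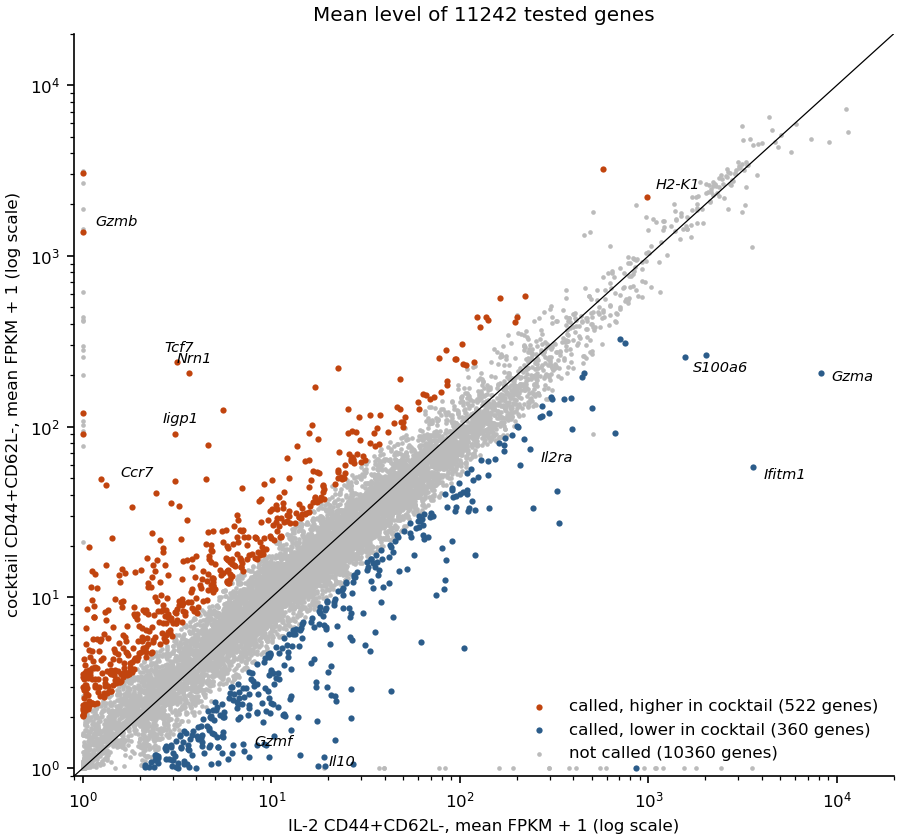
Mean FPKM + 1 of each of the 11242 tested genes in the cocktail CD44+CD62L- cells (vertical, log scale) against the IL-2 CD44+CD62L- cells (horizontal, log scale), with the line of equal level. The 522 genes called higher lie above the line and the 360 called lower lie below it, with Gzmb on the left edge at 0 in IL-2 cells and Gzma at 205 FPKM against 8244 FPKM.

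Among transcription factors that mark naive and memory T cells, every called gene was higher in the cocktail cells. Of 26 tested, 6 rose and 0 fell, a share of 23.1% higher where the background was 4.64%, with a median log2 fold change of 0.32. Tcf7 (chromosome 11, 52252371 to 52283014 of GRCm38), the Wnt partner and memory factor, had 236, 237 and 239.99 FPKM in the cocktail libraries, against 2.43, 2.13 and 1.92 FPKM in the IL-2 libraries. Uncultured naive cells had 679.9 ± 2.48 FPKM, so the cocktail cells stood between. Satb1, a chromatin organiser of T cells, stood at 47.98 ± 0.137 FPKM in cocktail and 9.06 ± 0.257 FPKM in IL-2 cells. Bach2, a repressor of effector genes, stood at 5.79 ± 0.141 FPKM in cocktail and 0.975 ± 0.153 FPKM in IL-2 cells, and Klf3, a Krüppel-like factor of quiescent lymphocytes, at 3.65 ± 0.174 FPKM in cocktail and 0.528 ± 0.0783 FPKM in IL-2 cells. Id3, an inhibitor of E proteins used by memory precursors, stood at 8.07 ± 0.265 FPKM in cocktail and 2.25 ± 0.473 FPKM in IL-2 cells. The lymphoid factor Ets1, with 125 ± 0.490 FPKM in cocktail and 59.6 ± 0.175 FPKM in IL-2 cells, was the sixth. Lef1, the close relative of Tcf7, narrowly missed the minimum fold, at 24.2 ± 0.364 FPKM in cocktail and 11.9 ± 0.420 FPKM in IL-2 cells and a log2 fold change of 0.96 ± 0.0226. A pair of quiescence factors was not called: Klf2 stood at 15.5 ± 0.134 FPKM in cocktail and 25.4 ± 0.492 FPKM in IL-2 cells, a log2 fold change of -0.68 ± 0.0182, and Foxo1 a log2 fold change of 0.44 ± 0.0167. The repressor Zbtb7b, known for the CD4 lineage, had 9.34 ± 0.0888 FPKM in cocktail and 15.03 ± 0.582 FPKM in IL-2 cells.

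Factors of effector fate moved both ways, with 4 risen and 4 fallen of 24 and a median of -0.28. That was 16.7% each way, against backgrounds of 4.64% higher and 3.20% lower. Prdm1, the Blimp-1 gene, had 1.39, 1.16 and 1.33 FPKM in the cocktail libraries, against 9.74, 9.94 and 9.87 FPKM in the IL-2 libraries. No cocktail library reached an IL-2 library, where 84.6% of all genes had no overlap. Irf8, a factor of effector differentiation, fell as well, at 22.04 ± 0.544 FPKM in cocktail and 45.3 ± 0.9997 FPKM in IL-2 cells, and so did 2 factors at low levels. Maf had 0.160 ± 0.0275 FPKM in cocktail and 1.4296 ± 0.0795 FPKM in IL-2 cells. The hypoxia-inducible factor gene Epas1 had 0.228 ± 0.0133 FPKM in cocktail and 1.99 ± 0.0554 FPKM in IL-2 cells. The fall of Irf8 lay at the minimum fold, with a log2 fold change of -1.01 ± 0.0222, and was no longer called without cocktail library 2 (-0.992), IL-2 library 2 (-0.999) or IL-2 library 3 (-0.994). Eomes, the T-box factor shared by memory and effector cells, rose, at 28.1 ± 0.172 FPKM in cocktail and 10.3 ± 0.396 FPKM in IL-2 cells. Tox, a regulator of exhausted and memory T cells, had 7.76 ± 0.275 FPKM in cocktail and 0.610 ± 0.0810 FPKM in IL-2 cells. Rora, a nuclear receptor, rose at 7.02 ± 0.668 FPKM in cocktail and 0.877 ± 0.189 FPKM in IL-2 cells, and Ikzf2, the Helios gene, at 11.8 ± 0.189 FPKM in cocktail and 3.29 ± 0.113 FPKM in IL-2 cells. Tbx21, encoding T-bet, the main effector T-box factor, was lower but narrowly missed the minimum fold, at 19.1 ± 0.0531 FPKM in cocktail and 37.9 ± 0.333 FPKM in IL-2 cells. The effector inhibitor Id2 was not called either, at 333 ± 1.75 FPKM in cocktail and 225 ± 1.54 FPKM in IL-2 cells.

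The Wnt pathway, on which TWS119 acts, showed few other calls. Of 20 genes tested 2 rose and 2 fell (10% each, background 4.64% and 3.20%, median 0.049), and of these Tcf7 is described above. Rnf43, a feedback inhibitor that beta-catenin induces, stood at 4.35 ± 0.319 FPKM in cocktail and 1.23 ± 0.0102 FPKM in IL-2 cells. Axin2, the standard readout of beta-catenin, was not called, at 1.77 ± 0.0879 FPKM in cocktail and 1.30 ± 0.0460 FPKM in IL-2 cells. Ctnnb1, beta-catenin itself, was not called either, at 88.1 ± 0.980 FPKM in cocktail and 97.9 ± 0.882 FPKM in IL-2 cells. Neither was Gsk3b, the target of TWS119, at 11.1 ± 0.149 FPKM in cocktail and 8.47 ± 0.127 FPKM in IL-2 cells. The ligand gene Wnt10b had 0.0642, 0.270 and 0.144 FPKM in the cocktail libraries, against 18.5, 17.99 and 17.7 FPKM in the IL-2 libraries. The co-receptor gene Lrp5 fell as well, at 1.58 ± 0.0201 FPKM in cocktail and 5.74 ± 0.0946 FPKM in IL-2 cells.

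The granule genes changed in both directions: of 37 tested 5 rose (13.5%, background 4.64%) and 8 fell (21.6%, background 3.20%), with a median of 0.017. The 5 that rose include Gzmb, whose IL-2 values are in doubt, as described below. Of the 8 that fell, 7 were granzyme genes. Gzma (chromosome 13, 113093825 to 113100981 of GRCm38), granzyme A, had 209, 199.9 and 206 FPKM in the cocktail libraries, against 8204, 8241 and 8288 FPKM in the IL-2 libraries. That was a level 40.3-fold lower than in IL-2 cells, and the largest fall in FPKM among the genes the text names. Gzmc, the next most abundant of them, stood at 90.3 ± 1.04 FPKM in cocktail and 662 ± 3.95 FPKM in IL-2 cells. Gzmd had 1.69 ± 0.261 FPKM in cocktail and 19.6 ± 1.39 FPKM in IL-2 cells and Gzme 0.990 ± 0.201 FPKM in cocktail and 12.9 ± 1.45 FPKM in IL-2 cells. Gzmf was all but lost from the cocktail libraries, at 0.199 ± 0.0538 FPKM in cocktail and 13.3 ± 0.250 FPKM in IL-2 cells. Gzmk, a granzyme of memory-type CD8 cells, fell, at 2.18 ± 0.176 FPKM in cocktail and 16.2 ± 0.984 FPKM in IL-2 cells, and Gzmg stood at 0.0915 ± 0.0453 FPKM in cocktail and 1.31 ± 0.223 FPKM in IL-2 cells. Gzmc to Gzmg are near-identical neighbours on chromosome 14 that can share reads, which leaves the split between them uncertain. Prf1, encoding perforin, the pore former that lets granzymes into the target, had 12.2, 11.7 and 11.1 FPKM in the cocktail libraries, against 81.1, 82.7 and 83.1 FPKM in the IL-2 libraries.

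Granzyme B ran the other way in the table. Gzmb (chromosome 14, 56258838 to 56262260 of GRCm38) had 1385, 1371 and 1366 FPKM in the cocktail libraries, against 0, 0 and 0 FPKM in the IL-2 libraries. Zeros in the table are not always absence of a transcript: Eef1a1, a translation factor gene that no cell lacks, was listed at 0 throughout. Gzmb is therefore given by its values alone, with no fold, and without it 4 of 36 granule genes rose. The lysosomal protease gene Ctss rose, at 91.1 ± 0.997 FPKM in cocktail and 24.5 ± 0.724 FPKM in IL-2 cells, and the membrane protein gene Lamp1, a sign of granule release at the cell surface, stood at 159.5 ± 1.30 FPKM in cocktail and 78.5 ± 0.640 FPKM in IL-2 cells. Serpinb6a, a protease inhibitor, stood at 175 ± 2.58 FPKM in cocktail and 84.4 ± 0.715 FPKM in IL-2 cells. Serpinb9, the inhibitor of granzyme B, was not called, at 22.8 ± 0.504 FPKM in cocktail and 22.7 ± 0.435 FPKM in IL-2 cells, and neither was Nkg7, a granule membrane gene, at 561 ± 7.02 FPKM in cocktail and 757 ± 5.39 FPKM in IL-2 cells. The death ligand Tnfsf10, TRAIL, rose, at 31.1 ± 1.39 FPKM in cocktail and 11.4 ± 0.295 FPKM in IL-2 cells, while the Fas ligand gene Fasl was not called, at 35.001 ± 0.707 FPKM in cocktail and 45.6 ± 0.768 FPKM in IL-2 cells.

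**Figure D2:**
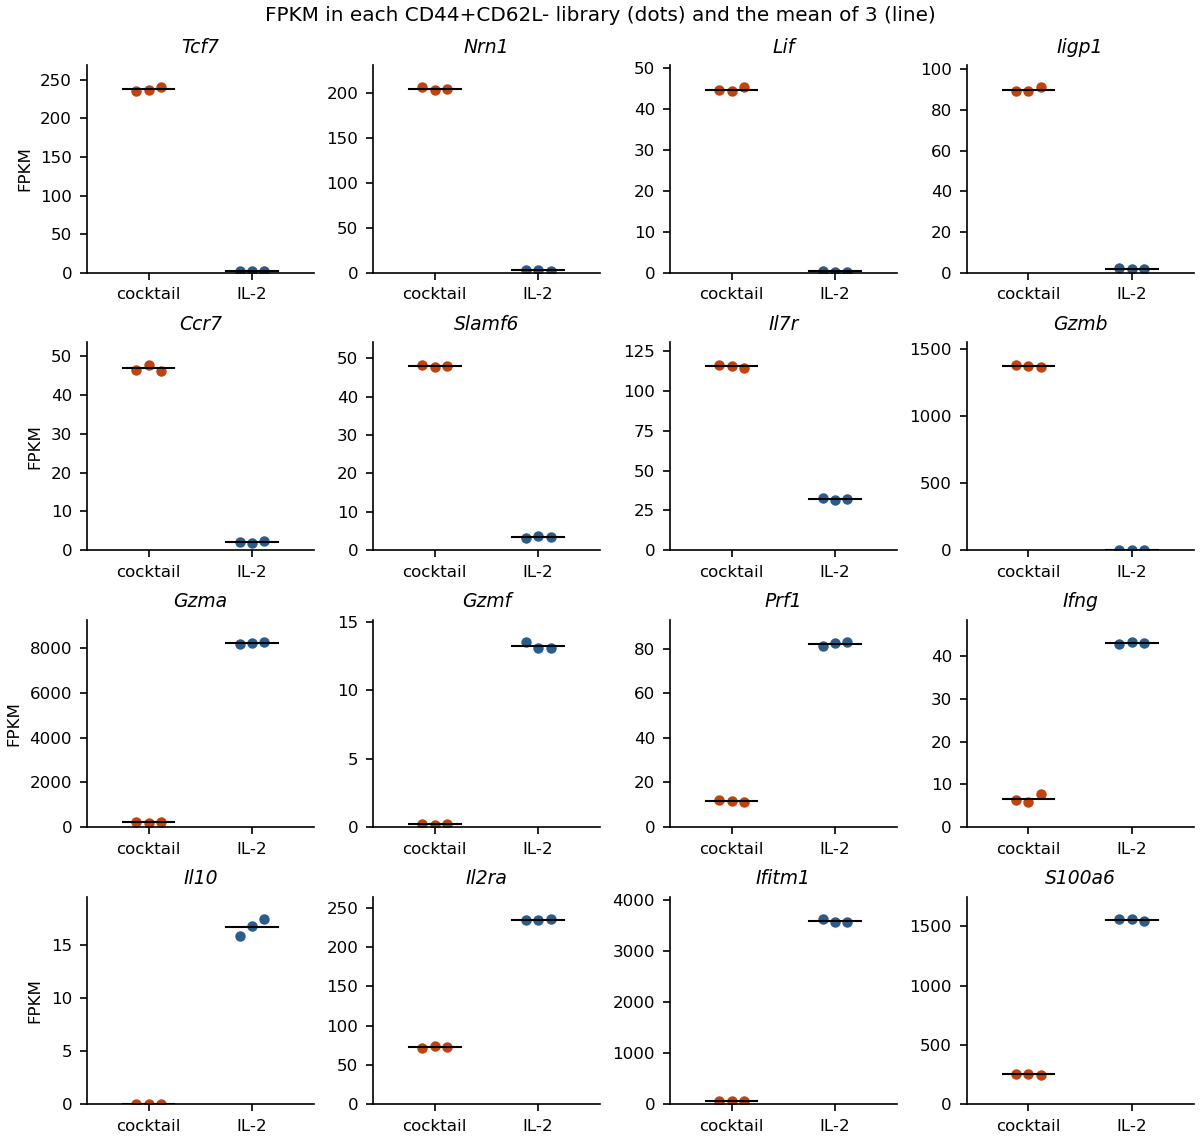
FPKM of 16 genes in each CD44+CD62L- library, cocktail on the left and IL-2 on the right, with the mean of 3 libraries as a line; each panel has its own scale from 0. In every panel the 3 cocktail libraries and the 3 IL-2 libraries form separate groups, for example Tcf7 at 237 FPKM against 2.16 FPKM and Il2ra at 72.6 FPKM against 235 FPKM. Libraries did not overlap in 84.6% of all genes tested.

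Of 20 secreted cytokines, 7 rose and 3 fell (35% and 15%, background 4.64% and 3.20%, median 0.52). Nrn1 (chromosome 13, 36725361 to 36735131 of GRCm38), encoding the neurotrophic factor neuritin, had 206, 203 and 204 FPKM in the cocktail libraries, against 2.86, 2.63 and 2.53 FPKM in the IL-2 libraries. Lif, a cytokine of the IL-6 family, had 44.4, 44.2 and 45.1 FPKM in the cocktail libraries, against 0.405, 0.311 and 0.288 FPKM in the IL-2 libraries. In both genes each cocktail library was far above each IL-2 library, where 84.6% of all genes had no overlap. Penk, which encodes the enkephalin precursor, had 10.3 ± 0.357 FPKM in cocktail and 0.189 ± 0.0598 FPKM in IL-2 cells. Csf2, the GM-CSF gene, stood at 11.4 ± 0.621 FPKM in cocktail and 0.577 ± 0.0407 FPKM in IL-2 cells, and the angiogenic factor Vegfa at 15.6 ± 0.837 FPKM in cocktail and 1.46 ± 0.201 FPKM in IL-2 cells. Ltb, lymphotoxin beta, was the most abundant of the risen cytokines, with 571, 561 and 559.5 FPKM in the cocktail libraries, against 163, 164 and 159 FPKM in the IL-2 libraries. Spp1, osteopontin, rose, at 36.9 ± 0.431 FPKM in cocktail and 17.9 ± 0.864 FPKM in IL-2 cells, with a log2 fold change of 1.004 ± 0.0362 that no longer passed the minimum without cocktail library 2 (0.996) or IL-2 library 3 (0.972). The 3 that fell were Il10, Ifng and Csf1. Ifng, the main macrophage-activating cytokine of CD8 cells, had 6.25, 5.95 and 7.67 FPKM in the cocktail libraries, against 42.96, 43.4 and 43.2 FPKM in the IL-2 libraries. The regulatory cytokine Il10 had 0, 0.0583 and 0.0293 FPKM in the cocktail libraries, against 15.9, 16.8 and 17.5 FPKM in the IL-2 libraries, close to the lowest values of the table in the cocktail libraries. Csf1 stood at 1.54 ± 0.0157 FPKM in cocktail and 11.5 ± 0.169 FPKM in IL-2 cells. Tnf was not called, at 31.3 ± 0.645 FPKM in cocktail and 22.5 ± 0.314 FPKM in IL-2 cells.

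Chemokine genes moved both ways. Of 8 tested 2 rose (25%, background 4.64%) and 3 fell (37.5%, background 3.20%). The list's median of -0.39 turned to 0.096 when genes under the level filter were kept. The 3 that fell are of the CC family. Ccl5 had 38.2, 43.7 and 41.5 FPKM in the cocktail libraries, against 323, 326 and 327 FPKM in the IL-2 libraries. Ccl4 stood at 15.5 ± 1.64 FPKM in cocktail and 82.9 ± 0.478 FPKM in IL-2 cells and Ccl3 at 7.05 ± 0.757 FPKM in cocktail and 25.6 ± 0.432 FPKM in IL-2 cells. Xcl1, which draws the dendritic cells that take up antigen for CD8 cells, had 105, 104 and 94.7 FPKM in the cocktail libraries, against 15.9, 16.1 and 14.3 FPKM in the IL-2 libraries. Its receptor gene Xcr1 fell, at 0.937 ± 0.0612 FPKM in cocktail and 5.65 ± 0.157 FPKM in IL-2 cells. Cxcl10, a chemokine induced by interferon gamma, rose, at 9.31 ± 0.222 FPKM in cocktail and 1.59 ± 0.117 FPKM in IL-2 cells.

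Of 23 chemokine and migration receptors, 4 rose and 6 fell (17.4% and 26.1%, background 4.64% and 3.20%, median 0.074). Ccr7, the lymph node homing receptor, had 46.5, 47.9 and 46.4 FPKM in the cocktail libraries, against 2.13, 1.85 and 2.26 FPKM in the IL-2 libraries. Naive cells had 301 ± 0.275 FPKM. Gpr183, the oxysterol receptor that positions lymphocytes, rose, at 29.1 ± 0.454 FPKM in cocktail and 11.4 ± 0.532 FPKM in IL-2 cells. Gpr171 stood at 37.8 ± 0.544 FPKM in cocktail and 16.1 ± 0.361 FPKM in IL-2 cells and Gpr18 at 52.9 ± 0.879 FPKM in cocktail and 23.7 ± 0.306 FPKM in IL-2 cells. Of those that fell, Gpr15, a colon homing receptor, had 1.48 ± 0.187 FPKM in cocktail and 21.03 ± 1.15 FPKM in IL-2 cells. Ltb4r1, the leukotriene B4 receptor that leads effector T cells to inflamed sites, had 2.65 ± 0.229 FPKM in cocktail and 18.9 ± 0.266 FPKM in IL-2 cells. The skin homing receptor gene Ccr4 stood at 2.35 ± 0.149 FPKM in cocktail and 6.75 ± 0.289 FPKM in IL-2 cells and the UDP-glucose receptor gene P2ry14 at 24.6 ± 0.436 FPKM in cocktail and 57.6 ± 1.23 FPKM in IL-2 cells. Cxcr3, a receptor of effector T cells, was not called, at 115 ± 2.06 FPKM in cocktail and 111 ± 1.26 FPKM in IL-2 cells, and S1pr1, the exit receptor of lymphoid tissue, was at 10.7 ± 0.209 FPKM in cocktail and 18.4 ± 0.281 FPKM in IL-2 cells.

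Among 35 adhesion genes 5 rose and 8 fell (14.3% and 22.9%, background 4.64% and 3.20%, median 0.32). Of the 8 that fell, 4 build or modify selectin ligands, the sugars by which effector T cells roll on inflamed vessels. Fut7, the fucosyltransferase that completes them, had 4.01, 4.77 and 4.32 FPKM in the cocktail libraries, against 18.8, 19.6 and 20.1 FPKM in the IL-2 libraries. Gcnt1, the core branching enzyme, stood at 1.41 ± 0.0792 FPKM in cocktail and 8.91 ± 0.181 FPKM in IL-2 cells. The sialyltransferase gene St3gal6 stood at 13.5 ± 0.925 FPKM in cocktail and 30.95 ± 0.169 FPKM in IL-2 cells and Fut4 at 1.93 ± 0.0601 FPKM in cocktail and 6.06 ± 0.0314 FPKM in IL-2 cells. Selplg, the protein that carries these sugars, was not called, at 438 ± 2.79 FPKM in cocktail and 365 ± 1.87 FPKM in IL-2 cells. Integrins moved in both directions. Itga4, the alpha 4 chain, had 33.5, 33.5 and 32.3 FPKM in the cocktail libraries, against 2.21, 2.18 and 2.31 FPKM in the IL-2 libraries. Itga1, a collagen receptor of tissue-resident cells, fell, at 1.003 ± 0.0620 FPKM in cocktail and 4.54 ± 0.0852 FPKM in IL-2 cells. Itgae, the partner of E-cadherin, was low in both, at 0.324 ± 0.0213 FPKM in cocktail and 2.31 ± 0.0877 FPKM in IL-2 cells, and Itgav fell, at 10.4 ± 0.0350 FPKM in cocktail and 22.9 ± 0.186 FPKM in IL-2 cells. Esm1, a secreted proteoglycan that binds the integrin LFA-1, had 0.454 ± 0.101 FPKM in cocktail and 20.7 ± 0.639 FPKM in IL-2 cells. The membrane protein gene Ly6e had 584, 587 and 584 FPKM in the cocktail libraries, against 223, 221 and 219.8 FPKM in the IL-2 libraries. The tetraspanin gene Cd9 stood at 29.8 ± 0.387 FPKM in cocktail and 13.6 ± 0.865 FPKM in IL-2 cells, and the sulfotransferase gene Chst2 at 3.41 ± 0.186 FPKM in cocktail and 0.273 ± 0.0204 FPKM in IL-2 cells.

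Cytokine receptors had 5 risen and 3 fallen of 28 (17.9% and 10.7%, background 4.64% and 3.20%, median 0.20). Both IL-2 receptor chains that pair with the common chain fell. Il2ra (chromosome 2, 11642807 to 11693193 of GRCm38), the high-affinity chain, had 71.8, 73.4 and 72.7 FPKM in the cocktail libraries, against 234, 234 and 236 FPKM in the IL-2 libraries. Il2rb, the chain shared with IL-15, had 308, 303 and 310.3 FPKM in the cocktail libraries, against 746, 755 and 747 FPKM in the IL-2 libraries. The common chain Il2rg, which IL-2, IL-7 and IL-21 receptors share, was not called, at 487 ± 3.91 FPKM in cocktail and 299 ± 3.25 FPKM in IL-2 cells. Il7r, the IL-7 receptor, had 117, 116 and 115 FPKM in the cocktail libraries, against 33.002, 31.6 and 32.1 FPKM in the IL-2 libraries. Il21r, for the other cytokine of the cocktail, was not called, at 60.6 ± 0.813 FPKM in cocktail and 75.004 ± 1.32 FPKM in IL-2 cells. Il4ra rose, at 62.9 ± 0.734 FPKM in cocktail and 26.05 ± 0.519 FPKM in IL-2 cells, and so did the gp130 gene Il6st, at 6.07 ± 0.230 FPKM in cocktail and 2.12 ± 0.0177 FPKM in IL-2 cells. Interferon receptor chains rose as well, Ifnar2 at 58.6 ± 2.76 FPKM in cocktail and 23.7 ± 0.599 FPKM in IL-2 cells and Ifngr2 at 4.69 ± 0.345 FPKM in cocktail and 0.250 ± 0.0543 FPKM in IL-2 cells. Il1rl1, the IL-33 receptor, fell, at 0.359 ± 0.0554 FPKM in cocktail and 7.396 ± 0.272 FPKM in IL-2 cells. Downstream of these receptors, of 30 JAK, STAT and SOCS genes 1 rose and 2 fell (3.33% and 6.67%, background 4.64% and 3.20%, median 0.15). Both that fell are known STAT5 targets, Socs2 at 13.7 ± 0.286 FPKM in cocktail and 51.5 ± 0.552 FPKM in IL-2 cells and Pim1 at 50.9 ± 0.592 FPKM in cocktail and 139 ± 2.86 FPKM in IL-2 cells. Cish, another STAT5 target, was not called, at 119 ± 0.800 FPKM in cocktail and 116 ± 0.774 FPKM in IL-2 cells. Socs3, a STAT3 target, was at 15.4 ± 0.267 FPKM in cocktail and 8.20 ± 0.0855 FPKM in IL-2 cells with a log2 fold change of 0.84 ± 0.0226, under the minimum.

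The TNF superfamily was among the lists with the most calls, 12 risen and 4 fallen of 34 (35.3% higher against a background of 4.64%; median 0.50). Ligands and receptors both took part. Tnfsf8, the CD30 ligand, had 76.4, 77.1 and 76.6 FPKM in the cocktail libraries, against 4.07, 3.38 and 3.43 FPKM in the IL-2 libraries, while Tnfrsf8, CD30 itself, had 1.59, 1.97 and 1.93 FPKM in the cocktail libraries, against 43.1, 42.6 and 41.4 FPKM in the IL-2 libraries. Ligand and receptor thus ran opposite ways. The death receptor gene Fas had 33.6, 36.1 and 34.8 FPKM in the cocktail libraries, against 2.20, 1.84 and 1.76 FPKM in the IL-2 libraries. Tnfsf4, the OX40 ligand, stood at 22.7 ± 0.135 FPKM in cocktail and 1.33 ± 0.187 FPKM in IL-2 cells, and Tnfsf14, the LIGHT gene, at 15.5 ± 0.335 FPKM in cocktail and 2.55 ± 0.187 FPKM in IL-2 cells. Its receptor gene Tnfrsf14 rose as well, at 26.5 ± 0.645 FPKM in cocktail and 7.79 ± 0.513 FPKM in IL-2 cells. Tnfsf11, RANKL, rose, at 26.6 ± 1.03 FPKM in cocktail and 9.55 ± 0.329 FPKM in IL-2 cells and the B cell survival factor Tnfsf13b, BAFF, at 5.22 ± 0.182 FPKM in cocktail and 1.64 ± 0.113 FPKM in IL-2 cells. The receptor gene Tnfrsf25 stood at 3.02 ± 0.212 FPKM in cocktail and 0.0327 ± 0.0283 FPKM in IL-2 cells and Tnfrsf26 at 20.2 ± 0.725 FPKM in cocktail and 5.64 ± 0.250 FPKM in IL-2 cells. Cd40lg, the CD40 ligand, had 1.84 ± 0.154 FPKM in cocktail and 0.413 ± 0.0736 FPKM in IL-2 cells, and its log2 fold change of 1.01 ± 0.118 no longer passed the minimum without cocktail library 1 (0.994), cocktail library 2 (0.977) or IL-2 library 1 (0.964). The costimulatory receptor gene Tnfrsf9, 4-1BB, fell, at 63.9 ± 2.06 FPKM in cocktail and 152 ± 0.476 FPKM in IL-2 cells. Tnfrsf13b, a receptor of BAFF, fell too, at 4.09 ± 0.548 FPKM in cocktail and 9.60 ± 0.537 FPKM in IL-2 cells, and so did the adaptor gene Traf4, at 5.85 ± 0.246 FPKM in cocktail and 17.9 ± 0.524 FPKM in IL-2 cells.

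Inhibitory receptors changed in both directions, 7 higher and 6 lower of 27 (25.9% and 22.2%, background 4.64% and 3.20%, median 0.36). Those that fell include receptors often used to describe chronically stimulated T cells. Pdcd1 (chromosome 1, 94038305 to 94052553 of GRCm38), encoding PD-1, had 32.7, 32.6 and 31.7 FPKM in the cocktail libraries, against 243, 242 and 242 FPKM in the IL-2 libraries. Havcr2, encoding TIM-3, had 9.17, 9.33 and 9.46 FPKM in the cocktail libraries, against 73.3, 72.2 and 74.9 FPKM in the IL-2 libraries. Tigit stood at 41.3 ± 0.954 FPKM in cocktail and 108 ± 1.21 FPKM in IL-2 cells, and the ectonucleotidase gene Entpd1 at 5.56 ± 0.310 FPKM in cocktail and 18.5 ± 0.564 FPKM in IL-2 cells. Cd244, the 2B4 gene, had 1.66, 1.57 and 1.75 FPKM in the cocktail libraries, against 20.96, 20.7 and 20.97 FPKM in the IL-2 libraries. The cocktail libraries were below the IL-2 libraries in all of these, where 84.6% of all genes had no overlap. Ctla4 was at 99.5 ± 1.39 FPKM in cocktail and 200.2 ± 1.02 FPKM in IL-2 cells. The log2 fold change of Ctla4, -1.002 ± 0.0407, lay at the minimum, and its call was lost without cocktail library 1 (-0.992) or IL-2 library 1 (-0.998). Lag3 was not called, at 89.1 ± 0.876 FPKM in cocktail and 95.5 ± 1.99 FPKM in IL-2 cells. Among those that rose, Cd274, the PD-1 ligand, stood at 27.3 ± 0.481 FPKM in cocktail and 8.58 ± 0.260 FPKM in IL-2 cells. The receptor gene Cd200r1 stood at 23.7 ± 0.221 FPKM in cocktail and 6.03 ± 0.109 FPKM in IL-2 cells and the prostaglandin E2 receptor gene Ptger2 at 10.4 ± 0.307 FPKM in cocktail and 3.26 ± 0.0418 FPKM in IL-2 cells. Cd6, a brake on T cell receptor signals, had 48.2 ± 0.510 FPKM in cocktail and 22.7 ± 0.814 FPKM in IL-2 cells. Tox is given above. Lilrb4 rose, at 114 ± 1.95 FPKM in cocktail and 28.2 ± 0.260 FPKM in IL-2 cells and Gp49a at 82.5 ± 1.97 FPKM in cocktail and 28.4 ± 0.304 FPKM in IL-2 cells, a near-identical pair that can share reads.

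Of 19 NK-type receptors 4 rose and 4 fell (21.1% each, background 4.64% and 3.20%), with a median of -0.054. Crtam, an adhesion receptor of activated CD8 cells, had 20.3, 21.2 and 21.4 FPKM in the cocktail libraries, against 2.03, 2.28 and 2.57 FPKM in the IL-2 libraries. The lectin-type receptor genes Klrb1f and Klri2 rose as well, Klrb1f with a log2 fold change of 1.85 ± 0.0756 and Klri2 at 15.5 ± 0.134 FPKM in cocktail and 4.86 ± 0.324 FPKM in IL-2 cells. Cd226, DNAM-1, the activating partner of Tigit, rose, at 69.8 ± 1.13 FPKM in cocktail and 21.7 ± 0.6999 FPKM in IL-2 cells. The Ly49 gene Klra5 had 16.9, 16.6 and 16.5 FPKM in the cocktail libraries, against 119, 123.1 and 115 FPKM in the IL-2 libraries. Fcer1g, the signalling adaptor of such receptors, stood at 3.35 ± 0.912 FPKM in cocktail and 15.9 ± 1.23 FPKM in IL-2 cells. Klrb1c, the NK1.1 gene, was low in both, at 0.271 ± 0.0532 FPKM in cocktail and 1.77 ± 0.0816 FPKM in IL-2 cells. Klrg1, a marker of terminal effectors, lay under the level filter, at 0.0556 ± 0.0276 FPKM in cocktail and 0.511 ± 0.212 FPKM in IL-2 cells. Of 21 SLAM and costimulatory genes 5 rose and 1 fell (23.8% and 4.76%, with the same background). The median of this list was -0.12, and 12 of the 21 had a negative value. Slamf6, a marker of stem-like CD8 cells, had 48.4, 47.7 and 47.98 FPKM in the cocktail libraries, against 3.22, 3.75 and 3.49 FPKM in the IL-2 libraries. Of the same family, Cd84 stood at 40.4 ± 0.596 FPKM in cocktail and 10.7 ± 0.239 FPKM in IL-2 cells and Slamf1 at 11.96 ± 0.421 FPKM in cocktail and 3.88 ± 0.180 FPKM in IL-2 cells. Ly9 rose too, at 79.4 ± 0.789 FPKM in cocktail and 32.4 ± 0.642 FPKM in IL-2 cells. Cd28, the main costimulatory receptor, was not called, at 47.003 ± 0.569 FPKM in cocktail and 50.6 ± 0.543 FPKM in IL-2 cells.

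T cell receptor signalling genes were mostly not called: of 51 tested 3 rose and 3 fell (median 0.080), which sum to 11.8% of the list against a background of 7.85%. The adaptor gene Trat1 had 7.38, 7.84 and 7.49 FPKM in the cocktail libraries, against 0, 0.0706 and 0.0714 FPKM in the IL-2 libraries. The exchange factor gene Vav3 rose, at 7.06 ± 0.0977 FPKM in cocktail and 2.11 ± 0.0547 FPKM in IL-2 cells, and so did Rasgrp1, an activator of Ras, at 92.5 ± 0.862 FPKM in cocktail and 40.5 ± 0.763 FPKM in IL-2 cells. Those that fell were phosphatases of MAP kinases, which signalling itself induces. Dusp4 had 2.96, 2.94 and 2.97 FPKM in the cocktail libraries, against 19.4, 19.3 and 20.7 FPKM in the IL-2 libraries. Dusp5 stood at 18.6 ± 0.558 FPKM in cocktail and 79.5 ± 1.14 FPKM in IL-2 cells and Dusp2 at 31.4 ± 0.611 FPKM in cocktail and 119 ± 1.35 FPKM in IL-2 cells. The proximal kinases were not called, Lck at 389.97 ± 1.02 FPKM in cocktail and 426 ± 2.40 FPKM in IL-2 cells and Zap70 at 89.01 ± 0.352 FPKM in cocktail and 104 ± 0.650 FPKM in IL-2 cells. Immediate early genes gave 4 risen and 4 fallen of 38 (10.5% each, background 4.64% and 3.20%, median 0.19). Egr1, an early readout of MAP kinase activity, had 10.3, 10.02 and 10.4 FPKM in the cocktail libraries, against 82.1, 80.8 and 80.1 FPKM in the IL-2 libraries. Ier2 fell, at 39.4 ± 0.797 FPKM in cocktail and 108 ± 3.55 FPKM in IL-2 cells, as did the mRNA decay factor gene Zfp36, at 22.3 ± 0.802 FPKM in cocktail and 62.4 ± 1.48 FPKM in IL-2 cells. Jund stood at 147 ± 1.98 FPKM in cocktail and 302 ± 1.33 FPKM in IL-2 cells. Of the 4 that rose, 3 are inhibitors or subunits of NF-kappaB. The inhibitor gene Nfkbia had 37.9, 37.4 and 37.5 FPKM in the cocktail libraries, against 9.54, 10.2 and 10.4 FPKM in the IL-2 libraries. Tnfaip3, encoding the inhibitor A20, stood at 15.8 ± 0.186 FPKM in cocktail and 4.80 ± 0.317 FPKM in IL-2 cells and the subunit gene Relb at 15.9 ± 0.764 FPKM in cocktail and 5.84 ± 0.220 FPKM in IL-2 cells. Jun, a subunit of AP-1, stood at 47.8 ± 0.959 FPKM in cocktail and 15.2 ± 0.615 FPKM in IL-2 cells.

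The interferon-inducible GTPases were the list with the highest share of calls among those described: 17 of 19 rose and 0 fell (89.5% higher against a background of 4.64%), with a median of 1.59. These proteins coat and break open vacuoles that hold pathogens, and are induced by interferon gamma and by type I interferon. Iigp1 (chromosome 18, 60376027 to 60392634 of GRCm38) had 89.6, 89.5 and 91.1 FPKM in the cocktail libraries, against 2.32, 2.07 and 1.82 FPKM in the IL-2 libraries. Gbp2 had 168, 169.8 and 172 FPKM in the cocktail libraries, against 16.2, 15.7 and 16.3 FPKM in the IL-2 libraries. Igtp, of the IRG family, had 383, 385 and 383 FPKM in the cocktail libraries, against 125, 127 and 129 FPKM in the IL-2 libraries. Irgm1, a regulator of that family, had 147, 147 and 147 FPKM in the cocktail libraries, against 69.3, 72.95 and 73.5 FPKM in the IL-2 libraries. In each of these the lowest cocktail library was above the highest IL-2 library, where 84.6% of all genes had no overlap. Of the other guanylate-binding protein genes, Gbp11 stood at 39.6 ± 0.600 FPKM in cocktail and 1.431 ± 0.0307 FPKM in IL-2 cells and Gbp10 at 23.5 ± 0.462 FPKM in cocktail and 4.46 ± 0.139 FPKM in IL-2 cells. Gbp6 stood at 130.03 ± 0.857 FPKM in cocktail and 45.4 ± 0.427 FPKM in IL-2 cells and Gbp4 at 138 ± 0.848 FPKM in cocktail and 59.3 ± 0.300 FPKM in IL-2 cells. Tgtp1, at 23.5 ± 0.142 FPKM in cocktail and 3.89 ± 0.333 FPKM in IL-2 cells, and Tgtp2, at 31.1 ± 0.525 FPKM in cocktail and 8.83 ± 0.0590 FPKM in IL-2 cells, are near-identical, and the guanylate-binding genes lie in clusters of similar copies, so the split between members is uncertain. The 2 that were not called, Mx1 at 66.4 ± 0.177 FPKM in cocktail and 119 ± 1.505 FPKM in IL-2 cells and Mx2 at 7.07 ± 0.103 FPKM in cocktail and 7.75 ± 0.271 FPKM in IL-2 cells, are known as targets of type I interferon. Irgm1, with a log2 fold change of 1.02 ± 0.0182, no longer passed the minimum without IL-2 library 1 (0.997).

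The wider list of interferon-stimulated genes was mixed. Of 54 tested 9 rose and 4 fell (16.7% and 7.41%, background 4.64% and 3.20%), with a median of 0.48. The membrane protein gene Ms4a4c had 124, 123.4 and 124 FPKM in the cocktail libraries, against 4.45, 4.32 and 4.82 FPKM in the IL-2 libraries. Slfn1, a growth regulator of T cells, stood at 189 ± 1.70 FPKM in cocktail and 47.2 ± 0.817 FPKM in IL-2 cells. Ifi44 had 8.36 ± 0.356 FPKM in cocktail and 0.590 ± 0.0916 FPKM in IL-2 cells, and Usp18, an inhibitor of the type I receptor, had 62.5 ± 0.491 FPKM in cocktail and 30.4 ± 0.489 FPKM in IL-2 cells. Ifi47, which is also among the GTPases, rose, at 281 ± 2.70 FPKM in cocktail and 83.4 ± 1.18 FPKM in IL-2 cells, and the transcription factor Irf1 at 125 ± 2.51 FPKM in cocktail and 47.3 ± 0.150 FPKM in IL-2 cells. Against these, 3 genes for membrane proteins that block virus entry fell together. Ifitm1 (chromosome 7, 140967221 to 140969825 of GRCm38) had 58.2, 55.98 and 57.8 FPKM in the cocktail libraries, against 3624, 3565 and 3564 FPKM in the IL-2 libraries. Ifitm3 had 26.2, 26.9 and 26.04 FPKM in the cocktail libraries, against 327, 336 and 334 FPKM in the IL-2 libraries. Ifitm2 had 122.9, 132 and 127 FPKM in the cocktail libraries, against 504, 487 and 510.05 FPKM in the IL-2 libraries. The fall of Ifitm1 was 62.5-fold. Oas2 fell as well, at 5.10 ± 0.187 FPKM in cocktail and 11.4 ± 0.287 FPKM in IL-2 cells. Ifit1, Isg15 and Irf7, which type I interferon also induces, were not called. Ifit1 was at 36.7 ± 0.307 FPKM in cocktail and 21.6 ± 0.387 FPKM in IL-2 cells. Isg15 was at 112 ± 1.63 FPKM in cocktail and 117 ± 1.46 FPKM in IL-2 cells, and Irf7 was at 143 ± 1.56 FPKM in cocktail and 125 ± 0.489 FPKM in IL-2 cells.

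The start regions of these genes were read for the letters of 2 interferon elements, the interferon-stimulated response element with the core GAAANNGAA and the GAS element TTCNNNGAA, on both strands, in windows of 250 bases before to 50 bases after the start (RefSeq, GRCm38.p6). Windows were found for 8927 of the genes tested. The GAAANNGAA core was in a window of 9 of the 10 GTPase genes that had a window, of 21 of 42 interferon-stimulated genes (50%), of 5 of 21 MHC class I genes (23.8%), of 18.5% of the genes that rose, of 11.9% of those that fell and of 8.68% of all genes. In other lists the share of this core ran from 0 of 13 Wnt pathway genes to 3 of 6 chemokine genes. It was in 12 of 53 ribosomal protein genes (22.6%), a list in which 0 rose. GAS letters were in windows of 6 of the 10 GTPase genes and 8.27% of all genes. In other lists the GAS share ran from 0 of 29 mitosis genes to 3 of 8 serpin genes (37.5%). The TCF/LEF letters CTTTGAA or CTTTGAT, which belong to neither interferon element, were in windows of 4 of the 10 GTPase genes and 6.92% of all genes. The windows of 4 risen GTPase genes and of Ifitm3, which fell, follow from 5′ to 3′ on the gene's strand, with the GAAANNGAA core of either strand in capitals.
Gbp2, chr3:142620413-142620712, plus strand: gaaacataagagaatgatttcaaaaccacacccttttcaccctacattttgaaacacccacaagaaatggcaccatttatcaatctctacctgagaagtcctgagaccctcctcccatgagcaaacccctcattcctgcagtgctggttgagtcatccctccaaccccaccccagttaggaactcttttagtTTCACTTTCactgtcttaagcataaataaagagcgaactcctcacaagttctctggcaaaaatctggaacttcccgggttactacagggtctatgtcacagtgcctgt
Gbp7, chr3:142530086-142530385, plus strand: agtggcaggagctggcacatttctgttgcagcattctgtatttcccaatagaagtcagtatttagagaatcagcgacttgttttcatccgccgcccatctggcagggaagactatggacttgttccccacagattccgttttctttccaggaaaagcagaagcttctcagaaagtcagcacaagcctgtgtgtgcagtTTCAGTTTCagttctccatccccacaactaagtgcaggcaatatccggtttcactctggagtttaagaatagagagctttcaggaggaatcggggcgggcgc
Irgm1, chr11:48871371-48871670, minus strand: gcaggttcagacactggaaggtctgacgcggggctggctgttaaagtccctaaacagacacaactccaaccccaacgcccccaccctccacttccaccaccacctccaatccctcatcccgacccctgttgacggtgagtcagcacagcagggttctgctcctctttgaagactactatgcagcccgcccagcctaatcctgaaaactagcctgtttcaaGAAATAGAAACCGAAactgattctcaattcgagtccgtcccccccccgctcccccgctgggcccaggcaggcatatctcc
Igtp, chr11:58199306-58199605, plus strand: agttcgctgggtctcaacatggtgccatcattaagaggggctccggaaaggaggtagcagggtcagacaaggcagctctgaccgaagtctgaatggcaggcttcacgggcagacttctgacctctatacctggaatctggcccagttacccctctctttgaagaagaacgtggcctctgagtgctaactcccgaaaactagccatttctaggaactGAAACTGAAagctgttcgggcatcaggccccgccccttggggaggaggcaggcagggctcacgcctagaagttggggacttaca
Ifitm3, chr7:141010695-141010994, minus strand: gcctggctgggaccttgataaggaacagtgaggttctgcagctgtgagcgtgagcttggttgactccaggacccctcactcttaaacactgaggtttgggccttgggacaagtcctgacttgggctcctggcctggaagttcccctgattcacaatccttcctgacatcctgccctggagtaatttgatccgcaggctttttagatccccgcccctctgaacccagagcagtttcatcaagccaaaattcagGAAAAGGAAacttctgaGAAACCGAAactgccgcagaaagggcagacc
The core lay from base 193 in the window of Gbp2, from base 199 in that of Gbp7 and from base 217 in that of Igtp, all before the start, while the window of Irgm1 held 2 overlapping cores, from bases 221 and 227. The window of Ifitm3 also held 2, from bases 253 and 270, just after the start, in a gene with 26.4 ± 0.493 FPKM in cocktail and 332 ± 4.67 FPKM in IL-2 cells. The letters were thus present both in genes that rose and in a gene that fell.

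Of the MHC class I genes 9 of 27 rose and 0 fell (33.3% against a background of 4.64%), and the median was 0.73. H2-K1, the class I molecule that presents SIINFEKL to OT-I cells, had 2214, 2199 and 2196 FPKM in the cocktail libraries, against 980.1, 973 and 983 FPKM in the IL-2 libraries. Non-classical class I genes rose as well. H2-Q7 had 437, 444 and 441.1 FPKM in the cocktail libraries, against 139.8, 138 and 131 FPKM in the IL-2 libraries. H2-Q4 stood at 421 ± 3.17 FPKM in cocktail and 139 ± 1.55 FPKM in IL-2 cells and H2-Q6 at 248 ± 6.72 FPKM in cocktail and 93.2 ± 2.34 FPKM in IL-2 cells. H2-T23, encoding Qa-1, stood at 411 ± 3.14 FPKM in cocktail and 194 ± 2.85 FPKM in IL-2 cells. These genes are close copies of each other that can share reads. Nlrc5, the transactivator of class I genes, rose, at 98.7 ± 0.748 FPKM in cocktail and 48.7 ± 0.337 FPKM in IL-2 cells, and fell short of the minimum without cocktail library 2 (0.999) or IL-2 library 1. B2m, the light chain, was not called, at 5774 ± 2.20 FPKM in cocktail and 3134 ± 12.03 FPKM in IL-2 cells, and the peptide transporter gene Tap1 was at 273 ± 1.39 FPKM in cocktail and 157 ± 1.80 FPKM in IL-2 cells. The loading chaperones Calr, at 321 ± 1.88 FPKM in cocktail and 488 ± 5.07 FPKM in IL-2 cells, and Canx, at 111 ± 0.861 FPKM in cocktail and 141 ± 1.31 FPKM in IL-2 cells, were lower without a call.

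**Figure D3:**
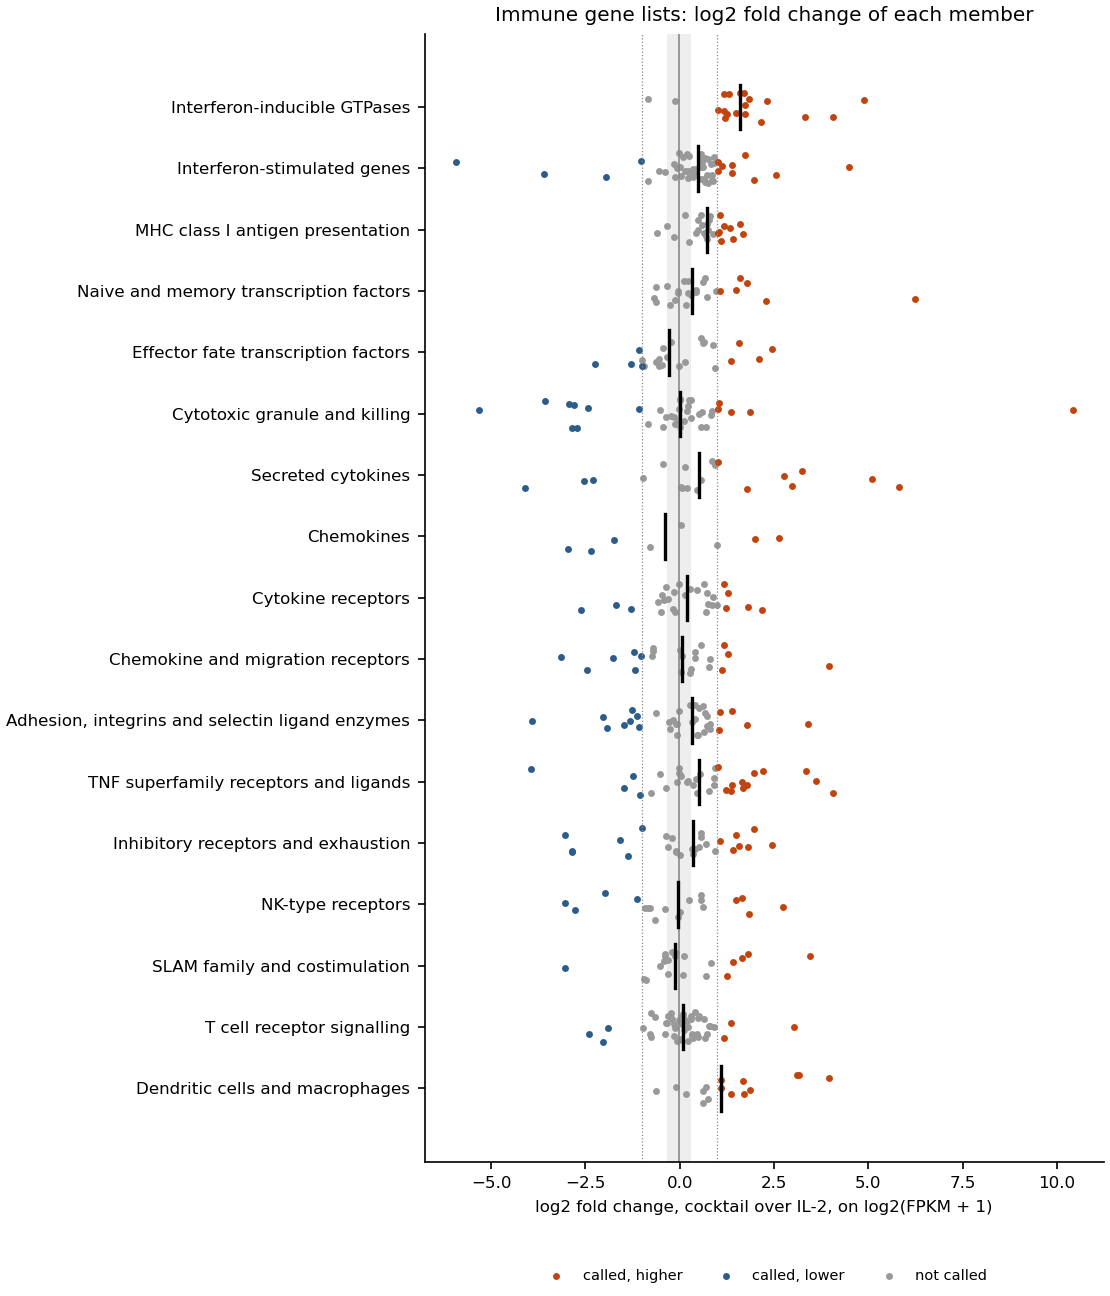
Log2 fold change of each tested member (points) of 17 gene lists, cocktail over IL-2, with the list's median as a black bar; the grey band spans the quartiles of all genes, -0.31 to 0.28, and dotted lines mark the minimum fold. The GTPase points lie almost wholly right of the band, with 17 of 19 called higher, while effector factors, inhibitory receptors and chemokines have called members on both sides.

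Markers of dendritic cells and macrophages rose too, and dendritic cells were in the culture from the start. Of 16 tested 9 rose and 0 fell (56.25% higher, background 4.64%, median 1.10). The summed level of the list was 332 to 338 FPKM in the cocktail libraries and 170 to 173 FPKM in the IL-2 libraries. Much of that sum is in Ctss and Cst3, genes that T cells also express, and Cst3 was not called, at 146 ± 2.28 FPKM in cocktail and 129 ± 1.06 FPKM in IL-2 cells. Lyz2, the lysozyme of myeloid cells, had 21.8, 21.6 and 20.5 FPKM in the cocktail libraries, against 0.363, 0.476 and 0.442 FPKM in the IL-2 libraries. Genes of MHC class II presentation rose too. H2-Ab1 had 13.7, 15.0004 and 12.3 FPKM in the cocktail libraries, against 0.591, 0.651 and 0.623 FPKM in the IL-2 libraries. The invariant chain gene Cd74 had 12.4, 12.6 and 12.5 FPKM in the cocktail libraries, against 0.775, 0.465 and 0.437 FPKM in the IL-2 libraries. H2-DMa stood at 31.7 ± 1.07 FPKM in cocktail and 9.04 ± 0.133 FPKM in IL-2 cells and H2-Aa at 1.31 ± 0.134 FPKM in cocktail and 0.0789 ± 0.0396 FPKM in IL-2 cells. Complement genes of macrophages were low but called, C1qb at 1.98 ± 0.177 FPKM in cocktail and 0.160 ± 0.144 FPKM in IL-2 cells and C1qc at 1.24 ± 0.329 FPKM in cocktail and 0.0400 ± 0.0398 FPKM in IL-2 cells. The lectin gene Clec4n was called at 2.38 ± 0.0290 FPKM in cocktail and 0.0609 ± 0.0557 FPKM in IL-2 cells. Other defining markers were not called. Itgax, encoding CD11c, was at 0.653 ± 0.0212 FPKM in cocktail and 1.56 ± 0.0764 FPKM in IL-2 cells. Csf1r, the receptor of macrophage growth factor, was at 0.554 ± 0.0652 FPKM in cocktail and 0.00619 ± 0.00536 FPKM in IL-2 cells, and Cd68 was at 3.23 ± 0.418 FPKM in cocktail and 3.55 ± 0.287 FPKM in IL-2 cells. Clec9a was listed at 0 in all 6 libraries. Naive cells, which were not cultured, had 57.3 ± 0.609 FPKM of Cd74 and 8.22 ± 0.661 FPKM of Lyz2. The part of such cells in the interferon, MHC class I, TNF and chemokine results was not tested.

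**Figure D4:**
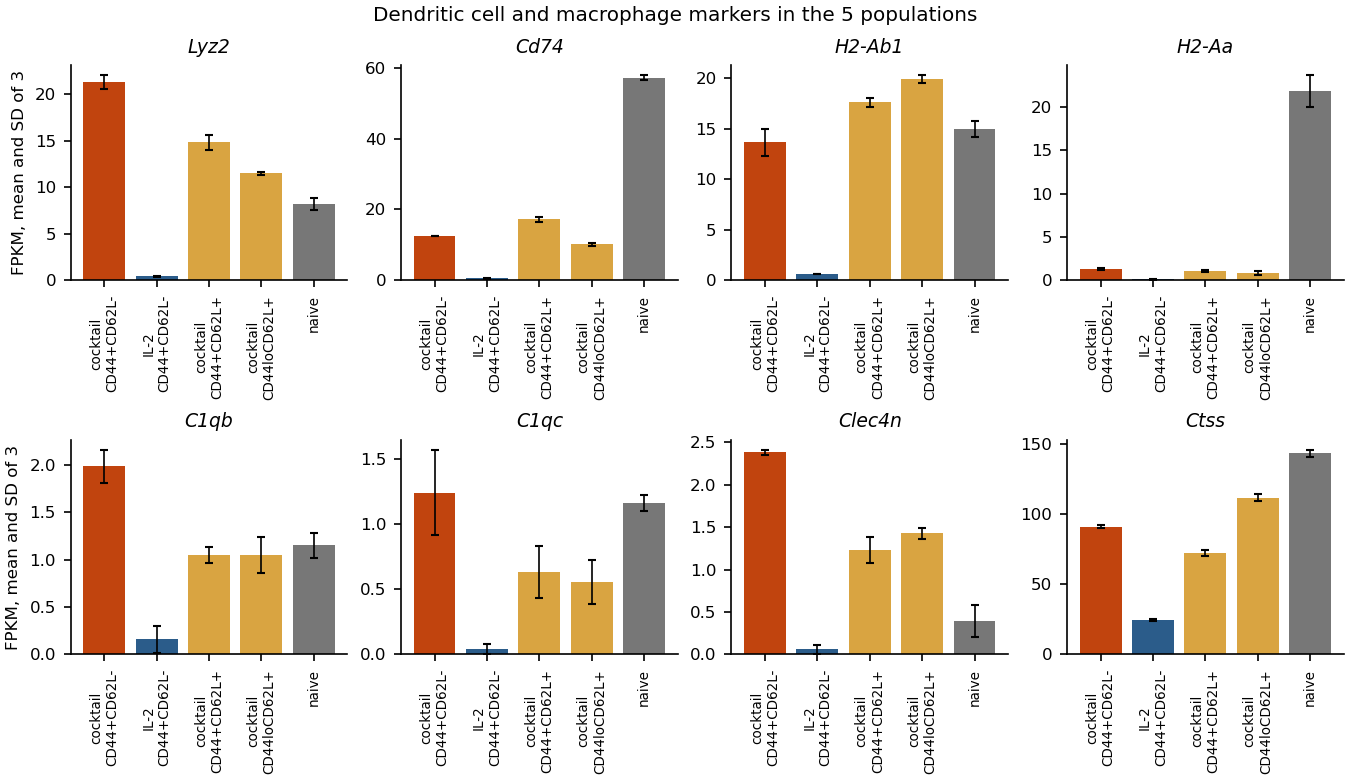
Mean FPKM (bars) and SD (whiskers, n = 3) of 8 dendritic cell and macrophage markers in the 5 populations of the study, with the cocktail CD44+CD62L- cells as the first bar and the IL-2 cells as the second. Each marker is higher in the cocktail than in the IL-2 CD44+CD62L- cells, for example Lyz2 at 21.3 FPKM against 0.427 FPKM, and Cd74 and H2-Aa are highest in naive cells.

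Markers of other cell types were mixed, and some, such as Il2rb and Eomes, are described above among genes of CD8 T cells. The background for these lists was 4.64% higher and 3.20% lower. Of 9 B cell markers 0 rose and 3 fell, and their summed level was 2.29 to 2.71 FPKM in the cocktail libraries and 34.2 to 35.1 FPKM in the IL-2 libraries. The largest part of that difference was Igj, the joining chain of secreted antibodies, with 0, 0.0845 and 0.0851 FPKM in the cocktail libraries, against 25.9, 25.5 and 26.4 FPKM in the IL-2 libraries. The plasma cell marker Sdc1 stood at 0.121 ± 0.0360 FPKM in cocktail and 1.99 ± 0.141 FPKM in IL-2 cells and Cd79b at 1.96 ± 0.163 FPKM in cocktail and 6.36 ± 0.492 FPKM in IL-2 cells. Pax5 and Ms4a1 were listed at 0 in all 6 libraries. Of 5 CD4 and regulatory T cell genes 1 rose and 2 fell. Foxp3, the regulatory T cell factor and 1 of those that fell, stood at 0.0772 ± 0.00570 FPKM in cocktail and 1.51 ± 0.151 FPKM in IL-2 cells. Cd4 itself was at 0.0112 ± 0.0194 FPKM in cocktail and 0.0197 ± 0.0246 FPKM in IL-2 cells. Of 7 genes of red cells, platelets, mast cells and neutrophils 3 rose and 1 fell. The neutrophil genes S100a8 and S100a9 rose, S100a8 at 1.67 ± 0.369 FPKM in cocktail and 0.0611 ± 0.106 FPKM in IL-2 cells and S100a9 at 1.22 ± 0.341 FPKM in cocktail and 0.0398 ± 0.0690 FPKM in IL-2 cells. The platelet factor gene Pf4 had 1.27 ± 0.311 FPKM in cocktail and 0.0593 ± 0.0514 FPKM in IL-2 cells, while the basophil protease gene Mcpt8 fell, at 0.221 ± 0.0587 FPKM in cocktail and 4.45 ± 0.521 FPKM in IL-2 cells. The calls of Pf4 and S100a9 lay at the minimum and were lost without cocktail library 1 for Pf4 (0.983) and without cocktail library 2 for S100a9 (0.965). Of 4 NK and gamma delta T cell genes 1 rose and 2 fell, Il2rb, Klrb1c and Eomes as given above, and the NK receptor gene Ncr1 was at 0.00850 ± 0.0147 FPKM in cocktail and 0 FPKM in IL-2 cells.

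Of 34 genes of the hypoxia response 9 rose and 0 fell (26.5% against a background of 4.64%), with a median of 0.56. Epas1, given above as fallen, is not in this list. P4ha2, a collagen prolyl hydroxylase gene and target of HIF-1, had 13.2, 12.6 and 12.7 FPKM in the cocktail libraries, against 0.662, 0.766 and 0.611 FPKM in the IL-2 libraries. Egln3, an oxygen sensor that HIF induces, stood at 21.5 ± 0.581 FPKM in cocktail and 7.22 ± 0.585 FPKM in IL-2 cells, and Ndrg1 at 31.8 ± 0.763 FPKM in cocktail and 9.69 ± 0.471 FPKM in IL-2 cells. The histone demethylase gene Kdm3a stood at 54.8 ± 0.557 FPKM in cocktail and 21.6 ± 0.703 FPKM in IL-2 cells and P4ha1, the sister of P4ha2, at 37.5 ± 0.444 FPKM in cocktail and 17.3 ± 0.0860 FPKM in IL-2 cells. The mitophagy gene Bnip3l had 78.2 ± 1.81 FPKM in cocktail and 36.3 ± 0.684 FPKM in IL-2 cells. Hif1a, encoding the oxygen-regulated subunit, was not called, at 118 ± 1.62 FPKM in cocktail and 64.2 ± 0.438 FPKM in IL-2 cells. The HIF core ACGTG or its reverse was in a window of 22 of 29 hypoxia genes (75.9%) and of 30.1% of all genes tested, with 23.1% among all genes that rose and 28.6% among those that fell. In other lists the share of this core ran from 0 of 8 serpin genes to 17 of 32 glycolysis genes (53.1%). It was in 14 of 32 DNA replication genes (43.75%), a list in which 0 rose. The window of P4ha2 is shown as the gene with the largest rise of the list, with its 2 cores in capitals, 1 on each side of the start.
P4ha2, chr11:54100674-54100973, plus strand: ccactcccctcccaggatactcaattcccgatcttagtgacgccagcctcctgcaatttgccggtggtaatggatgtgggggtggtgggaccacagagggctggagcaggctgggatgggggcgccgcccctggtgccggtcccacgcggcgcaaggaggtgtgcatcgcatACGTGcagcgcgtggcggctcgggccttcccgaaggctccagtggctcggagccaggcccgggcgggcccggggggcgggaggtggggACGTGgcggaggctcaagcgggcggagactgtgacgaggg

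In glycolysis, the pathway that 2-deoxyglucose blocks, 4 of 33 genes rose and 0 fell (12.1% higher, background 4.64%, median 0.30). The glucose transporter gene Slc2a3 had 61.3, 62.7 and 61.5 FPKM in the cocktail libraries, against 25.5, 25.7 and 25.6 FPKM in the IL-2 libraries. Pdk1, which keeps pyruvate out of mitochondria, stood at 53.5 ± 0.167 FPKM in cocktail and 21.4 ± 0.288 FPKM in IL-2 cells. Pfkfb3, which makes an activator of phosphofructokinase, stood at 17.5 ± 0.167 FPKM in cocktail and 7.95 ± 0.135 FPKM in IL-2 cells, and the lactate dehydrogenase gene Ldhb at 6.74 ± 0.846 FPKM in cocktail and 1.73 ± 0.0317 FPKM in IL-2 cells. Hk2, the hexokinase of activated T cells, went the other way without a call, at 10.5 ± 0.223 FPKM in cocktail and 15.9 ± 0.194 FPKM in IL-2 cells. Ldha was at 1549 ± 3.57 FPKM in cocktail and 1803 ± 13.3 FPKM in IL-2 cells and Slc2a1 at 60.5 ± 0.502 FPKM in cocktail and 41.9 ± 0.490 FPKM in IL-2 cells, both not called. The pentose phosphate genes Taldo1, at 119 ± 1.08 FPKM in cocktail and 186 ± 1.68 FPKM in IL-2 cells, and Rpia, at 28.6 ± 0.784 FPKM in cocktail and 51.002 ± 0.585 FPKM in IL-2 cells, were lower, also without a call. No gene of mannose metabolism and N-glycosylation was called, of 32 tested, at a median of -0.18, and 24 of the 32 had a negative value. Mpi, the enzyme that links glucose and mannose, had a log2 fold change of -0.97 ± 0.0356, close to the minimum, at 4.91 ± 0.256 FPKM in cocktail and 10.6 ± 0.0834 FPKM in IL-2 cells, and passed it without cocktail library 3. Of 26 endoplasmic reticulum genes 1 rose and 1 fell (3.85% each, background 4.64% and 3.20%, median -0.24). Ddit3, encoding the stress factor CHOP, rose, at 34.9 ± 0.790 FPKM in cocktail and 10.6 ± 0.166 FPKM in IL-2 cells. The chaperone cofactor gene Sdf2l1 fell, at 39.2 ± 1.85 FPKM in cocktail and 98.5 ± 1.28 FPKM in IL-2 cells.

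Amino acid response genes had 7 risen and 1 fallen of 36 (19.4% and 2.78%, background 4.64% and 3.20%), at a median of 0.0057. Beside Ddit3, 6 genes known from the response to the stress factor ATF4 rose. The hormone gene Stc2 had 29.6, 29.3 and 28.7 FPKM in the cocktail libraries, against 5.97, 5.77 and 4.87 FPKM in the IL-2 libraries. The arginine transporter gene Slc7a3 stood at 4.57 ± 0.464 FPKM in cocktail and 0.231 ± 0.0343 FPKM in IL-2 cells and Nupr1 at 4.58 ± 0.456 FPKM in cocktail and 0.703 ± 0.0975 FPKM in IL-2 cells. The factor gene Atf5 had 9.71 ± 0.638 FPKM in cocktail and 2.74 ± 0.0921 FPKM in IL-2 cells and the pseudokinase gene Trib3 13.3 ± 0.460 FPKM in cocktail and 6.05 ± 0.555 FPKM in IL-2 cells. Trib3 lost its call without IL-2 library 1 (0.960). The translation repressor gene Eif4ebp1 had 63.4 ± 1.16 FPKM in cocktail and 25.5 ± 0.549 FPKM in IL-2 cells. In the serine pathway Shmt1 fell, at 13.3 ± 0.725 FPKM in cocktail and 46.6 ± 0.412 FPKM in IL-2 cells. Phgdh was not called, at 156 ± 1.04 FPKM in cocktail and 260.01 ± 3.42 FPKM in IL-2 cells. Asns, the asparagine synthetase gene and another ATF4 target, was not called, at 42.2 ± 0.410 FPKM in cocktail and 25.3 ± 1.28 FPKM in IL-2 cells.

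Mitochondrial and lipid genes leaned lower. In oxidative phosphorylation 49 of 50 tested genes had a negative log2 fold change, at a median of -0.48 where all genes had -0.013. Only 2 passed the minimum fold, 4% where the background was 3.20% lower. Ndufa4, of complex IV, had 141, 151 and 142 FPKM in the cocktail libraries, against 351, 365 and 349.8 FPKM in the IL-2 libraries. Cyc1, of complex III, had 98.5 ± 1.71 FPKM in cocktail and 202 ± 2.79 FPKM in IL-2 cells. Of 31 fatty acid oxidation genes 0 rose and 1 fell (3.23%, background 3.20%, median -0.11). That was the fatty acid carrier gene Cd36, at 0.226 ± 0.0389 FPKM in cocktail and 5.21 ± 0.0788 FPKM in IL-2 cells. Cpt1a, the gate of mitochondrial fat burning, was not called, at 19.03 ± 0.296 FPKM in cocktail and 23.9 ± 0.441 FPKM in IL-2 cells. Sterol and fatty acid synthesis had 1 risen and 7 fallen of 37 (18.9% lower against a background of 3.20%; median -0.64). The fallen ones were 2 desaturase genes and 5 genes of the cholesterol pathway. Fads2 had 4.95, 4.997 and 4.56 FPKM in the cocktail libraries, against 24.6, 24.98 and 25.4 FPKM in the IL-2 libraries. Scd1 stood at 1.84 ± 0.101 FPKM in cocktail and 8.61 ± 0.123 FPKM in IL-2 cells. Of these, Fdps, which makes farnesyl diphosphate, had 69.4, 72.4 and 70.6 FPKM in the cocktail libraries, against 168, 168 and 172 FPKM in the IL-2 libraries. Idi1 stood at 28.9 ± 0.184 FPKM in cocktail and 70.7 ± 1.77 FPKM in IL-2 cells and Cyp51 at 18.7 ± 0.336 FPKM in cocktail and 41.97 ± 0.298 FPKM in IL-2 cells. Hmgcs1, at the head of the pathway, had 42.6 ± 0.565 FPKM in cocktail and 89.6 ± 1.96 FPKM in IL-2 cells, and Sc4mol had 16.6 ± 0.0763 FPKM in cocktail and 34.98 ± 0.780 FPKM in IL-2 cells. Mylip, a ubiquitin ligase gene that sterols induce, rose, at 2.75 ± 0.348 FPKM in cocktail and 0.417 ± 0.104 FPKM in IL-2 cells.

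**Figure D5:**
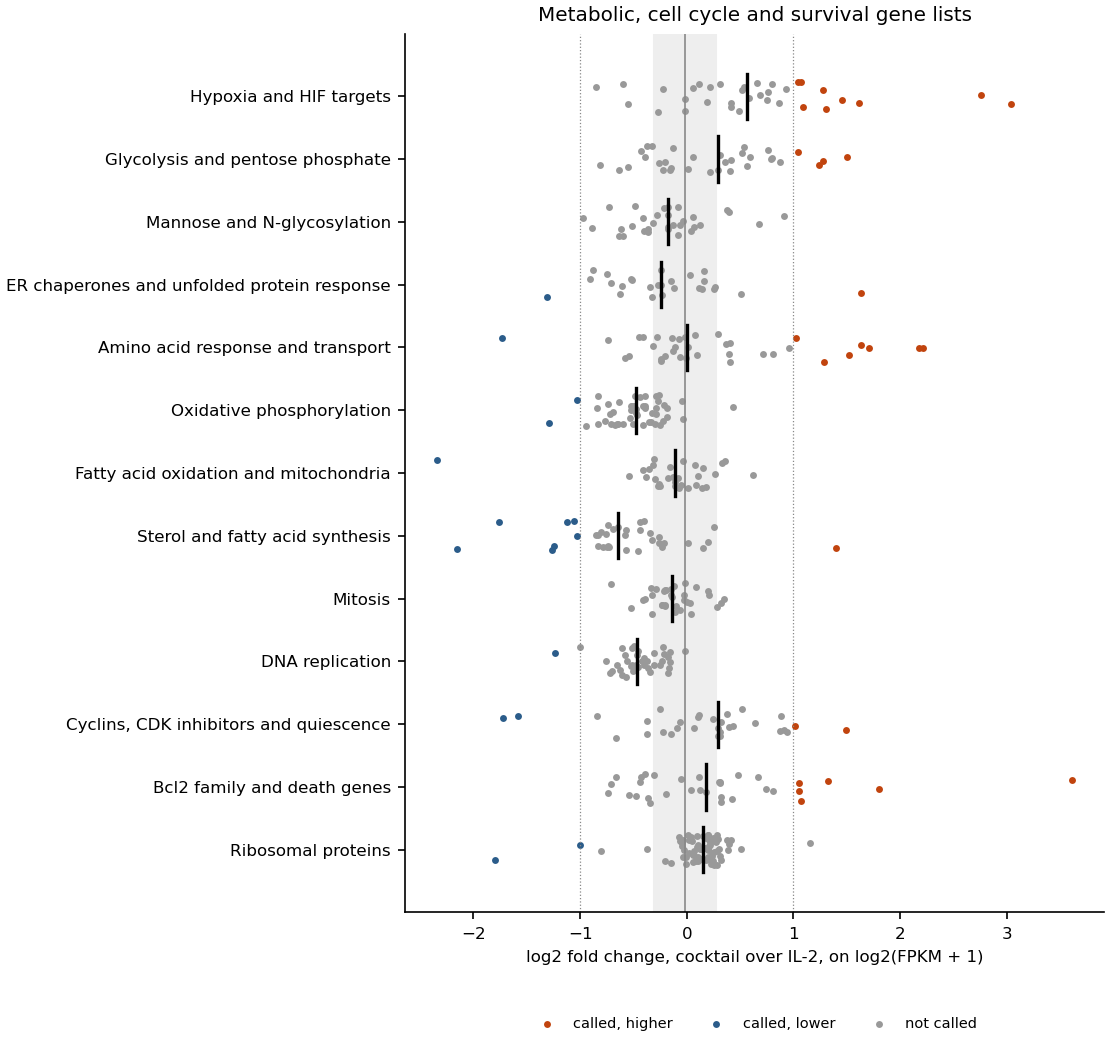
Log2 fold change of each tested member (points) of 13 metabolic, cell cycle and survival lists, cocktail over IL-2, with the list's median as a black bar, the quartiles of all genes as a grey band and dotted lines at the minimum fold. The medians of oxidative phosphorylation (-0.48) and DNA replication (-0.46) lie left of the band, with 2 and 1 called members. That of hypoxia (0.56) lies right of it, with 9 called members. Single members of these lists also lie within the band or beyond it on the other side.

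All 40 DNA replication genes had a negative value, at a median of -0.46. Again few passed the minimum: 0 rose and 1 fell (2.5%, background 3.20%). That was the G1 cyclin gene Ccne1, with 28.5, 29.2 and 27.5 FPKM in the cocktail libraries, against 66.8, 68.4 and 69.3 FPKM in the IL-2 libraries. The ribonucleotide reductase gene Rrm2 was at 137 ± 1.92 FPKM in cocktail and 232 ± 1.33 FPKM in IL-2 cells. Mitosis genes had no calls, with 0 of 34 and a median of -0.14. Top2a was at 229 ± 0.916 FPKM in cocktail and 180.4 ± 0.249 FPKM in IL-2 cells and the mitotic cyclin gene Ccnb1 at 65.1 ± 1.22 FPKM in cocktail and 108 ± 0.689 FPKM in IL-2 cells. Naive cells had 3.24 ± 0.274 FPKM of Top2a. Among 31 cyclins and inhibitors of division 2 rose and 2 fell (6.45% each, background 4.64% and 3.20%). The 2 that fell are the neighbouring INK4 genes, inhibitors of CDK4 and CDK6 that build up in long-cultured cells. Cdkn2a had 20.6, 21.2 and 23.1 FPKM in the cocktail libraries, against 65.6, 67.4 and 67.4 FPKM in the IL-2 libraries. Cdkn2b stood at 2.33 ± 0.134 FPKM in cocktail and 9.96 ± 0.371 FPKM in IL-2 cells. Sesn3, a stress sensor that FOXO factors induce, rose, at 43.3 ± 1.23 FPKM in cocktail and 14.7 ± 0.277 FPKM in IL-2 cells, and Slfn2, which keeps T cells quiescent, at 238 ± 3.75 FPKM in cocktail and 117 ± 1.81 FPKM in IL-2 cells. Cdkn1b, encoding p27, stood at 47.6 ± 0.614 FPKM in cocktail and 24.3 ± 0.532 FPKM in IL-2 cells, just under the minimum fold.

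Of 33 survival genes 6 rose and 0 fell (18.2% against a background of 4.64%; median 0.18), and the risen genes act both for and against death. Bcl2, which blocks death, had 93.2, 93.1 and 92.3 FPKM in the cocktail libraries, against 25.6, 25.6 and 26.4 FPKM in the IL-2 libraries, while Bcl2l11, which encodes its opponent BIM, rose as well, at 44.98 ± 0.255 FPKM in cocktail and 20.9 ± 0.0776 FPKM in IL-2 cells, as did Fas. Birc2, an inhibitor of apoptosis, stood at 35.1 ± 0.585 FPKM in cocktail and 16.4 ± 0.265 FPKM in IL-2 cells. The inflammatory caspase genes rose too, Casp1 at 61.03 ± 0.598 FPKM in cocktail and 29.02 ± 1.36 FPKM in IL-2 cells and Casp4 at 34.03 ± 1.49 FPKM in cocktail and 13.01 ± 0.803 FPKM in IL-2 cells. Mcl1 was not called, at 104 ± 1.62 FPKM in cocktail and 83.2 ± 1.18 FPKM in IL-2 cells, and Bcl2l1, encoding BCL-XL, was at 17.7 ± 0.783 FPKM in cocktail and 29.5 ± 0.746 FPKM in IL-2 cells. Of 10 serpin genes 4 rose and 1 fell (40% and 10%, background 4.64% and 3.20%, median 0.70). Serpina3g, an inhibitor of cathepsins that protects memory CD8 cells in mice, had 219, 218 and 219.9 FPKM in the cocktail libraries, against 21.8, 22.01 and 21.2 FPKM in the IL-2 libraries. Serpina3f stood at 33.03 ± 1.04 FPKM in cocktail and 0.828 ± 0.0210 FPKM in IL-2 cells. Both are copies of a cluster that can share reads.

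Of 30 S100, annexin, galectin and metallothionein genes 2 rose and 5 fell (16.7% lower against a background of 3.20%; median -0.15). S100a4 had 257, 272 and 261 FPKM in the cocktail libraries, against 2001, 2022 and 2049.6 FPKM in the IL-2 libraries. S100a6 had 259, 258 and 248 FPKM in the cocktail libraries, against 1563, 1563 and 1544 FPKM in the IL-2 libraries. These were falls of 7.68-fold and 6.11-fold in FPKM. The annexin gene Anxa1 had 32.3 ± 0.247 FPKM in cocktail and 141 ± 2.40 FPKM in IL-2 cells. The galectin gene Lgals3 stood at 119.6 ± 2.37 FPKM in cocktail and 297 ± 2.54 FPKM in IL-2 cells and the metallothionein gene Mt1 at 205 ± 3.44 FPKM in cocktail and 455 ± 8.23 FPKM in IL-2 cells. Lgals1, which is abundant in effector cells, was not called, at 1806 ± 8.76 FPKM in cocktail and 3139 ± 20.8 FPKM in IL-2 cells.

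Of 29 chromatin genes 1 rose and 2 fell (3.45% and 6.90%, background 4.64% and 3.20%, median -0.16). The demethylase gene Kdm5b rose, at 4.12 ± 0.110 FPKM in cocktail and 1.17 ± 0.0311 FPKM in IL-2 cells, and the deacetylase gene Hdac7 fell, at 25.5 ± 0.737 FPKM in cocktail and 62.8 ± 0.465 FPKM in IL-2 cells. The nucleosome binder gene Hmgn1 fell, at 26.1 ± 1.30 FPKM in cocktail and 53.6 ± 1.47 FPKM in IL-2 cells, with a log2 fold change of -1.01 ± 0.0330 that no longer passed the minimum without cocktail library 2 (-0.992), cocktail library 3 (-0.986) or IL-2 library 2 (-0.987). Ezh2, of the Polycomb complex, was not called, at 70.8 ± 0.288 FPKM in cocktail and 82.3 ± 0.917 FPKM in IL-2 cells. Of 22 Notch pathway genes 1 rose (4.55%, background 4.64%), Dtx4 at 2.09 ± 0.0767 FPKM in cocktail and 0.163 ± 0.0270 FPKM in IL-2 cells. Of 73 ribosomal protein genes 0 rose and 2 fell (2.74% lower, background 3.20%, median 0.16). Rpl26 stood at 58.6 ± 4.57 FPKM in cocktail and 207 ± 19.7 FPKM in IL-2 cells and Rpl34 at 15.8 ± 2.07 FPKM in cocktail and 32.7 ± 4.20 FPKM in IL-2 cells, and the call of Rpl34, at the minimum fold, was lost without cocktail library 1 (-0.964), cocktail library 3 (-0.938) or IL-2 library 3 (-0.901).

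Genes outside the lists above were named for their fold change or for their difference in FPKM. Dapl1, a gene of epithelial differentiation also found in resting T cells, had 47.7, 49.1 and 48.6 FPKM in the cocktail libraries, against 0.186, 0.368 and 0.186 FPKM in the IL-2 libraries. The transglutaminase gene Tgm2 rose, at 18.8 ± 0.101 FPKM in cocktail and 0.0814 ± 0.0563 FPKM in IL-2 cells, and so did Nsg2, at 14.5 ± 0.322 FPKM in cocktail and 0.329 ± 0.102 FPKM in IL-2 cells. Ms4a6b, a membrane protein gene of T cells named for its difference in FPKM, rose, at 438 ± 4.52 FPKM in cocktail and 199.9 ± 1.17 FPKM in IL-2 cells. The gap junction gene Gja5 fell, at 0.0296 ± 0.0278 FPKM in cocktail and 18.1 ± 0.297 FPKM in IL-2 cells. The sulfotransferase gene Sult2b1 stood at 0.971 ± 0.0659 FPKM in cocktail and 25.4 ± 1.603 FPKM in IL-2 cells and the adaptor gene Lat2 at 4.49 ± 0.194 FPKM in cocktail and 61.2 ± 0.616 FPKM in IL-2 cells. Fam129b had 0.891 ± 0.129 FPKM in cocktail and 16.5 ± 0.264 FPKM in IL-2 cells, and Rps27l, a p53 target named for its difference in FPKM, had 324 ± 2.92 FPKM in cocktail and 706 ± 4.50 FPKM in IL-2 cells. The RNase P RNA gene Rpph1 had 4.04 ± 0.471 FPKM in cocktail and 104 ± 8.997 FPKM in IL-2 cells, a short RNA whose FPKM value can be inflated.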

How the data were processed

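FPKM values of 15 libraries were analysed, in 1 table of 23284 genes that the authors deposited, of which 6039 were at 0 in every library. Per the submitters' processing notes, TopHat2 2.0.9 aligned the reads to mm10 and Cuffdiff 2.1.1 estimated the values; neither the annotation, the use of strand nor read totals are stated in the sources used here. All columns were used, and samples were grouped by their labels. Values were taken to log2(FPKM + 1), and the 11242 genes whose mean reached 1 FPKM in at least 1 of the 5 populations entered a linear model in limma (version 3.58.1, R 4.3.3; all 15 libraries, population as the sole term, variance trend, Benjamini-Hochberg adjustment over all genes tested). No 2 libraries held identical values.

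The members and lists were chosen with earlier results of these data known. The 36 gene lists and 6 marker lists are described by their counts and medians, with no test of a list. Named genes were the 15 highest and 15 lowest called genes by fold change (at least 10 FPKM in the higher population, above 0 in the other, no overlap), the 10 largest rises and 10 largest falls in FPKM, up to 3 members at each end of each list at 5 FPKM or more and all called markers; predicted genes, small RNAs and receptor segments were left out of the rankings. Further list members were named where their role called for it, after their values were seen, and some members are not reported here by name.

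Of 8323 ratios between low values (under 0.5 FPKM, of at least 1.5), 60.1% were whole to within 0.05 (10% by chance), so relative depth could be read from single-read steps, but total depth could not. In data simulated on these libraries (11134 genes), the calls took in 50 of 50 genes given a 3-fold change, 0 of 50 given a 1.5-fold change and 0 of 10934 left alone. The changed genes were at 5 FPKM or more, and the minimum fold lies between these changes, so the counts largely follow from it. The simulated spread was that of technical libraries, so false calls between cultures were not measured. Gene spans are from GENCODE for GRCm38, the assembly that mm10 names, and start windows from RefSeq for GRCm38.p6. Alternatives were pseudocounts of 0.1 and 5, other level filters, median-ratio and quantile scaling, a fit on the 6 libraries, a block for the replicate number, a fit without the variance trend, other minimum folds, gene classes left out and each library left out in turn. Figures were drawn with matplotlib 3.10.9.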

Additional observations from a re-analysis of the deposited data

How the results depend on the processing

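The number of called genes followed the pseudocount and the minimum fold. With a pseudocount of 0.1 FPKM, 1393 genes were called, 854 higher and 539 lower, and with 5 FPKM 379, 226 higher and 153 lower. With a minimum log2 fold change of 2, 180 were called, 108 higher and 72 lower, and with no minimum 9479, 4568 higher and 4911 lower. Under the other settings the counts stayed within 1.5 times of 882, 522 and 360, from 703 called genes with a filter of 5 FPKM to 881 without the variance trend or with a replicate block. Leaving out each library in turn gave 881 to 890 called, 513 to 529 higher and 357 to 371 lower. Quantile normalization gave 488 higher and 371 lower, and shared 791 of the 882 called genes. Among those it did not call are Cyc1, H2-Aa, C1qc, Hmgcs1, Sc4mol, Jund, Mt1 and Rps27l, with log2 fold changes that kept their sign. None of the 252 called genes among the 384 chosen by the rule or named changed sign under any alternative. Calls were less stable than signs: 74 of these genes lost their call with a pseudocount of 5 FPKM and 17 under quantile normalization. With that pseudocount 3 naive and memory factors rose in place of 6, and 1 effector factor fell in place of 4. Of the adhesion genes 2 rose and 3 fell, in place of 5 and 8. Secreted cytokines kept 6 risen and 3 fallen. Of the genes not called, these changed sign under quantile normalization: Atp5c1 0.0713, Ctnnb1 0.0271, Isg15 0.114, Lag3 0.0775, Mcm6 0.0453, Ndufa10 0.134, Pdia3 0.0119, Pole 0.0218. Without single libraries Serpinb9 ranged over -0.0114 to 0.0203 and Cklf over -0.00918 to 0.1002. The median of the chemokine list turned from -0.39 to 0.096 with no filter, and that of the NK-type receptors from -0.054 to 0.25 with a filter of 5 FPKM. The median of the amino acid list turned from 0.0057 to -0.041 with that filter. Libraries with the same number did not deviate together (r = -0.24, -0.030 and 0.059), so the numbers were not taken as pairs; with the replicate number as a block 881 genes were called, 521 higher and 360 lower. Precision is limited by the 3 technical libraries of each population, by the fold scale at low FPKM and by values of 0 that can be failed estimates: 12 called genes were listed at 0 in all libraries of 1 population, and without such genes 871 were called.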

Other observations

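Gene families that the lists above do not hold also moved. They were gathered by name, or for the targets of Myc by hand, after their values were seen. Some leaned higher: of 285 Zfp zinc finger genes 68 were below 0, with 6 risen and 1 fallen (median 0.17). Of 8 Gimap genes 1 was below 0 and none was called (median 0.40). Histone genes were lower: of 44 tested 3 rose and 14 fell, with a median log2 fold change of -0.72. Of all genes tested 4.64% rose and 3.20% fell. Most replication-dependent histone transcripts lack a poly(A) tail, and those that fell were at low levels. Hist1h2bj had 1.11, 1.28 and 1.10 FPKM in the cocktail libraries, against 6.62, 8.45 and 9.91 FPKM in the IL-2 libraries. Hist1h2ag stood at 2.09 ± 0.606 FPKM in cocktail and 9.34 ± 1.36 FPKM in IL-2 cells and Hist1h3c at 1.61 ± 0.248 FPKM in cocktail and 6.15 ± 1.06 FPKM in IL-2 cells. Hist1h2bc and Hist3h2ba rose, Hist1h2bc at 7.47 ± 1.55 FPKM in cocktail and 2.93 ± 0.620 FPKM in IL-2 cells and Hist3h2ba at 8.51 ± 0.444 FPKM in cocktail and 3.32 ± 0.10004 FPKM in IL-2 cells. The copies are near-identical, so reads can be split between them.

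Genes of ribosome production and other known targets of Myc leaned lower without a change in Myc itself past the minimum fold. Of 40 tested, 39 had a negative value and 7 fell (median -0.66). These 40 were picked by hand after values were seen, so the share below 0 depends in part on that choice. Of all genes tested 3.20% fell, and the median of all genes was -0.013. Nme1, a nucleoside diphosphate kinase gene, had 117, 113 and 115 FPKM in the cocktail libraries, against 271, 269.7 and 273 FPKM in the IL-2 libraries. Srm, spermidine synthase, stood at 37.96 ± 1.27 FPKM in cocktail and 90.8 ± 2.17 FPKM in IL-2 cells and Ranbp1, of nuclear transport, at 144 ± 1.14 FPKM in cocktail and 306 ± 3.25 FPKM in IL-2 cells. Nhp2, of the small nucleolar particles, had 77.5 ± 1.24 FPKM in cocktail and 171 ± 3.69 FPKM in IL-2 cells. Myc was at 69.9 ± 1.53 FPKM in cocktail and 82.8 ± 0.965 FPKM in IL-2 cells and the nucleolar gene Fbl at 115 ± 2.30 FPKM in cocktail and 204 ± 2.13 FPKM in IL-2 cells, both not called. Mitochondrial ribosomal protein genes shared the direction, with 70 of 76 below 0 and none called (median -0.46). So did genes of the proteasome, with 37 of 42 below 0 and none called (median -0.48). The inducible subunits of the immunoproteasome differed from the constitutive ones in sign. Psmb9 had a log2 fold change of 0.74 ± 0.0113, Psmb8 one of 0.25 ± 0.0115 and Psmb10 one of 0.59 ± 0.0154, against -0.68 ± 0.0234 for Psmb6, -0.699 ± 0.0242 for Psmb5 and -0.56 ± 0.0152 for Psmb7, all under the minimum fold.

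Single called genes outside every list, picked after their values were seen, include receptors and regulators. Kit, the stem cell factor receptor, had 16.3, 15.6 and 16.04 FPKM in the cocktail libraries, against 1.27, 1.19 and 1.13 FPKM in the IL-2 libraries. Dpp4, encoding the peptidase CD26, stood at 90.3 ± 0.565 FPKM in cocktail and 14.8 ± 0.203 FPKM in IL-2 cells, and Art2b, an ADP-ribosyltransferase of T cells, at 18.5 ± 1.11 FPKM in cocktail and 1.68 ± 0.385 FPKM in IL-2 cells. Smad3, of the TGF-beta pathway, had 23.8 ± 0.417 FPKM in cocktail and 4.78 ± 0.0498 FPKM in IL-2 cells, and Txnip, an inhibitor of glucose uptake, had 252 ± 2.38 FPKM in cocktail and 76.1 ± 0.783 FPKM in IL-2 cells. Lower were the chaperone gene Hsp90aa1, at 195 ± 4.005 FPKM in cocktail and 441.5 ± 3.71 FPKM in IL-2 cells, and Fkbp5, a cofactor of steroid receptors, at 35.8 ± 0.616 FPKM in cocktail and 115 ± 1.42 FPKM in IL-2 cells. Zbtb32, a repressor of memory recall, had 32.9 ± 0.273 FPKM in cocktail and 94.4 ± 1.91 FPKM in IL-2 cells.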
